A study of Mus musculus with 8 samples.

Results

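Integrins are cell-surface adhesion receptors built from 1 alpha and 1 beta chain, and the genes described here encode 5 alpha chains (Itga4, Itga6, Itgae, Itgal and Itgav) and 4 beta chains (Itgb1, Itgb2, Itgb3 and Itgb7). These 9 genes were taken by name from the 23420 gene symbols counted, and all 9 were among the 11409 genes with enough counts to be tested. RNA sequencing measured thymocytes, T cells in development, of wild-type mice of the strains labelled B6 and BALB, with substrain, age and sex not given in the labels. In each strain 2 libraries came from sorted DP thymocytes, which carry both CD4 and CD8 and were gated as CD69-negative with low to intermediate staining by the T cell receptor antibody H57, and 2 from whole thymocytes, the unfractionated population. The 4 groups thus hold 8 libraries. The labels do not say whether replicates came from separate animals, so p-values measure the spread between these libraries, which may be technical. By sex-linked genes, given below, the 2 BALB whole libraries did not hold the same material, so their spread is not only technical.

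The partner a chain binds sets what the receptor recognises. Itgal pairs with Itgb2 as LFA-1, which binds ICAM proteins on other cells. Itga4 pairs with Itgb1 to bind VCAM-1 and fibronectin, or with Itgb7 to bind the gut addressin MAdCAM-1. Itgae, the CD103 chain, pairs with Itgb7 to bind E-cadherin on epithelium, and Itga6 with Itgb1 is a laminin receptor. Itgav takes several beta chains, Itgb3 among them, to bind vitronectin and to release active TGF-beta. Thymocytes meet these ligands on stromal cells and matrix as they move from cortex to medulla, and integrins change from a resting to a binding form when talin and kindlin attach to the beta tail.

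Levels are given as scaled CPM, which are counts brought to a common library total with trimmed-mean scaling. Libraries held 2632083 to 5974684 counts in genes. Of the markers of the sorted population, Rag1, which cuts receptor gene segments, was at 10184 CPM in B6 DP and 4828 CPM in BALB DP thymocytes. S1pr1, the exit receptor of mature thymocytes, had no counts in B6 DP. Of the 8 mature thymocyte markers listed, 7 had counts in B6 DP and all 8, S1pr1 included, in BALB DP. By level their sum was lower in BALB DP, at 713 to 803 CPM against 877 to 912 CPM in B6 DP libraries. BALB DP replicate 1 stood apart by its low share of the ribosomal RNA precursor gene Rn45s (3.14% of counts against 5.11% to 8.35% elsewhere), and BALB whole replicate 1 by sex-linked genes (12313 counts of Xist and 0 of Ddx3y). BALB whole replicate 2 held 203 counts of Xist and 725 of Ddx3y. The remaining libraries held 6 to 24 of Xist and 444 to 1177 of Ddx3y. By these genes BALB whole thymocytes mixed sexes, which bears on every comparison that uses them. The build named in the submitters' processing notes is mm10, a genome of a B6 mouse. Unaligned reads made up 14.6% and 18.6% of the B6 DP, 12.8% and 21.2% of the BALB DP, 19.98% and 20.7% of the B6 whole and 18.4% and 19.8% of the BALB whole libraries, so the ranges of the strains overlapped in DP thymocytes and the B6 values were the higher ones in whole thymocytes. Whether BALB variants within an integrin gene lowered its counts was not tested. In bulk RNA, fewer cells of a type and less RNA per cell cannot be told apart, and whole thymocytes mix all stages.

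Transcripts of LFA-1 were the most abundant of the 9 once counts were divided by exon length. In B6 DP thymocytes the per-length level, in scaled CPM per kilobase of exon (mean ± SD, n = 2 throughout), was 88.5 ± 1.56 for Itgb2 and 87.1 ± 0.593 for Itgal, and the libraries of these 2 genes overlapped. Itgb1 followed at 46.3 ± 0.283, Itga4 at 23.5 ± 1.48 and Itga6 at 13.8 ± 0.286. Itgav at 5.45 ± 0.0224 and Itgb7 at 5.38 ± 1.03 did not differ beyond their spread, and Itgae at 2.15 ± 0.153 and Itgb3 at 0.520 ± 0.243 were the lowest. In BALB DP thymocytes Itga6 ranked 3 on the per-length scale at 41.2 ± 0.904, next to Itgb1 at 39.2 ± 1.82, with Itgal at 58.0 ± 6.19 above them and Itga4 at 15.8 ± 0.266 below. Whole thymocytes had Itgb2 first and Itgal next in both strains. Per-length levels depend on the gene model. With the longest transcript in place of all exons, Itgal rather than Itgb2 was first in B6 DP, and Itga6 rose above Itgal to the second place in BALB DP, at 86.2 against 73.0 scaled CPM per kilobase.

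**Figure D1:**
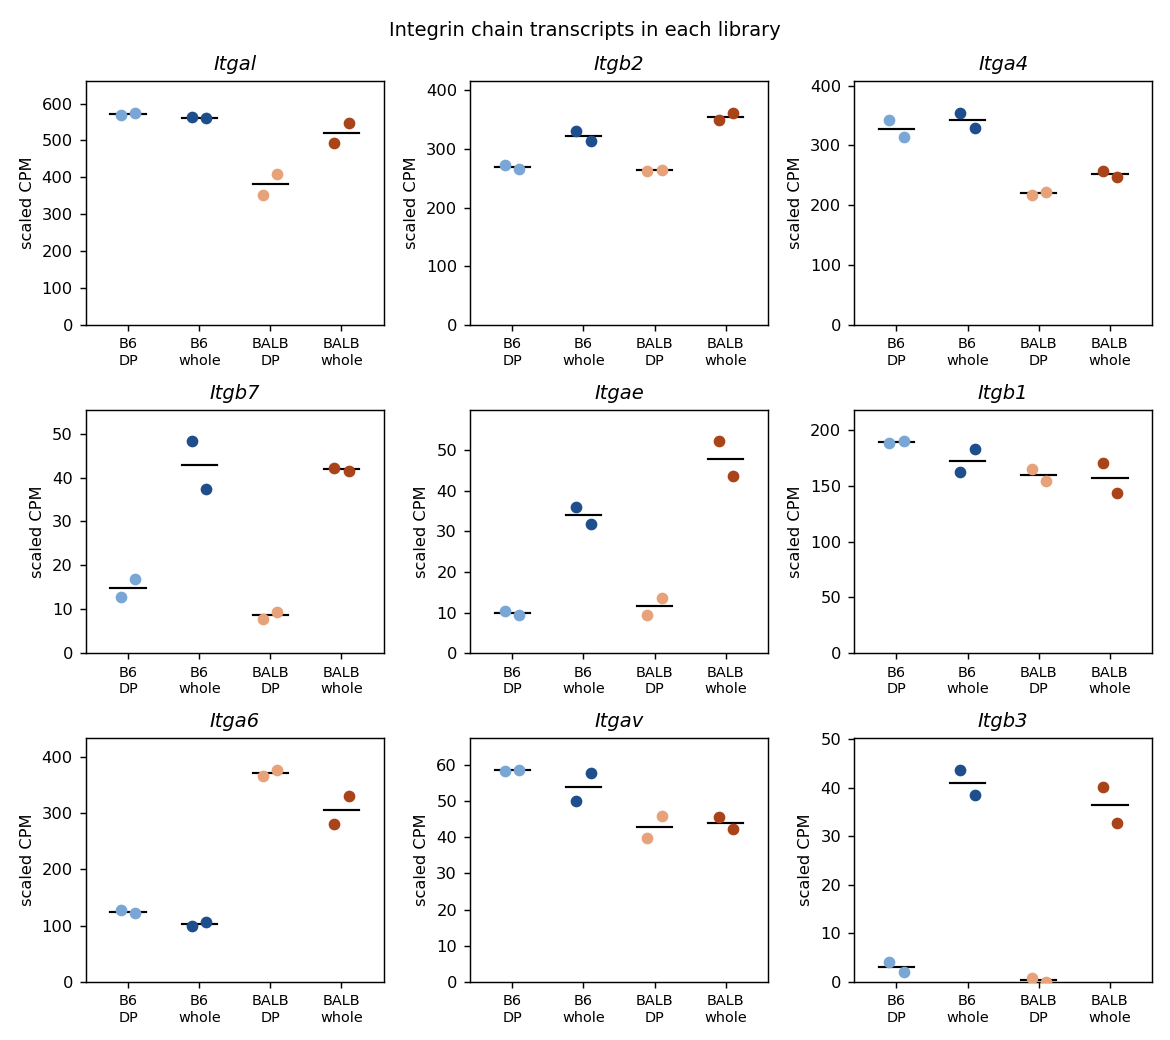
Scaled CPM of each integrin gene (vertical axes, linear from 0) in each of the 4 groups; points are libraries in replicate order and bars are group means. Both BALB groups lie above both B6 groups for Itga6, and both whole thymocyte groups lie above both DP groups for Itgae, Itgb3 and Itgb7.

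Between DP thymocytes of the 2 strains, 1 of 9 was called higher in BALB (Itga6) where 6.85% of all genes tested were called higher, and 4 of 9 were called lower (Itga4, Itgal, Itgb3 and Itgb7) against 6.14% of all genes. Markers of DP thymocytes were also lower in BALB DP: the list of 10 summed to 18363 to 19132 CPM in B6 DP and 11697 to 11924 CPM in BALB DP libraries. Of the 10, 5 were called lower and none was above 0, with a median of −0.37 on the log2 scale. In whole thymocytes 5 of the 10 were called lower and 1 was above 0, with a median of −0.32, while Itgal, Itgb3 and Itgb7 were not called there. The part of these markers in the lower integrin values was not tested. In whole thymocytes 1 was higher (Itga6; 1.98% of all genes) and 1 lower (Itga4; 2.61%). Between populations, whole over DP thymocytes, 3 of 9 were higher in B6 (Itgae, Itgb3 and Itgb7) against 6.89% of all genes, and 5 of 9 in BALB (the same 3 with Itgal and Itgb2) against 10.6%. No integrin gene was called lower in whole thymocytes, where 3.27% of all genes in B6 and 6.59% in BALB were, although Itga6 had an unadjusted p below the threshold downward in each strain, and DESeq2 and limma-voom also called 0. A call means edgeR's quasi-likelihood test gave a Benjamini-Hochberg adjusted p under 0.05 over all genes tested. Libraries of the groups compared did not overlap for 52.2% of all genes between strains in DP, 48.6% in whole thymocytes, 61.4% between populations in B6 and 52.7% in BALB, so lack of overlap alone is frequent with 2 libraries a group. The comparisons share groups, so their calls are not independent. The median log2 fold change of the 9 genes was −0.46 for BALB over B6 in DP, −0.11 in whole, 0.06 for whole over DP in B6 and 0.43 in BALB, where the medians of all genes tested lay between −0.004 and 0.018.

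**Figure D2:**
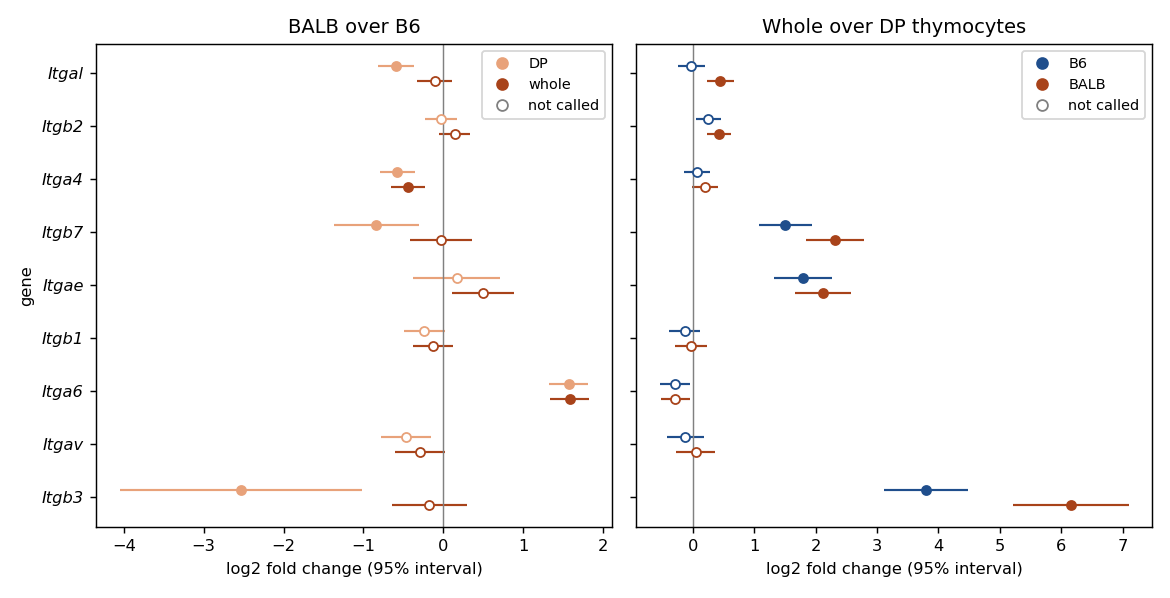
Fitted log2 fold changes of the integrin genes (horizontal axes) with 95% intervals, BALB over B6 on the left and whole over DP thymocytes on the right; filled points passed an adjusted p of 0.05. Itga6 lies farthest to the right in the strain panel at 1.57 and 1.58, and Itgb3 lies farthest out in the population panel at 3.80 and 6.16.

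Itga6, the alpha chain of a laminin receptor (chromosome 2, 71745616 to 71858416 on the plus strand; all positions are in mm10), showed the largest strain difference of the 9 in whole thymocytes and the smallest p in both populations. Its libraries read 127 and 123 CPM in B6 DP, 366 and 377 in BALB DP, 98.5 and 106 in B6 whole, and 280.2 and 331 in BALB whole thymocytes. Every BALB library lay above every B6 library. Itga6 was 2.97-fold higher in BALB DP thymocytes (log2 fold change 1.57 ± 0.11 (SE), adjusted p = 4.29e-06 by edgeR's quasi-likelihood test) and 2.99-fold higher in BALB whole thymocytes (1.58 ± 0.11, adjusted p = 6.30e-06). The strain difference in whole minus that in DP thymocytes was 0.01 on the log2 scale, with a 95% interval from −0.33 to 0.35.

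Between populations the log2 fold change of Itga6, whole over DP, was −0.29 ± 0.11 in B6 (adjusted p = 0.140) and −0.28 ± 0.11 in BALB (adjusted p = 0.0935, edgeR's quasi-likelihood test), with no overlap of libraries in either strain. Neither passed the test. The B6 difference passed in 3 of 18 alternatives, among them the fit of only the 4 libraries compared (−0.27, adjusted p = 0.0189) and the fits without BALB DP replicate 2 (adjusted p = 0.0478) and without both libraries that stood apart (adjusted p = 0.00870). Over the alternatives this adjusted p ranged from 0.00870 to 0.532.

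Genes beside Itga6 differed between the strains in both directions. Within 1 Mb of Itga6, a window chosen after the Itga6 values were known, 11 other genes were tested. Of these, 2 were called higher and 1 lower in BALB DP thymocytes, against 6.85% and 6.14% of all genes. Pdk1, a kinase that switches off pyruvate dehydrogenase and starts 127.6 kb downstream of the Itga6 start, fell from 171 CPM in B6 DP to 35.9 in BALB DP thymocytes (−2.25 ± 0.14 on the log2 scale) and from 170.4 to 32.6 CPM in whole thymocytes (−2.38 ± 0.14). Rapgef4, an activator of the small GTPase Rap1 that starts 235.6 kb downstream, rose from 6.0 to 36.2 CPM in DP (2.60 ± 0.26) and from 13.0 to 41.2 CPM in whole thymocytes (1.66 ± 0.22). The histone acetyltransferase gene Hat1, at −356.7 kb, rose by 0.56 ± 0.14 in DP thymocytes (adjusted p = 0.0259 by edgeR's quasi-likelihood test) and was at 0.13 ± 0.14 in whole thymocytes, a difference that did not pass (interaction −0.42 ± 0.20, adjusted p = 0.470). The calls of Pdk1 and Rapgef4 held in 18 of 18 alternatives in both populations. The Hat1 call held in 10 of 18, with adjusted p up to 0.163, and ended without BALB DP replicate 1 (0.39, adjusted p = 0.148). The other 8 neighbours were not called in either strain comparison. Itga4 (chromosome 2, 79255426 to 79333123) and Itgav (chromosome 2, 83724397 to 83806916) lie farther along the same chromosome and had lower, not higher, values in BALB DP thymocytes. None of the 3 and 8 genes tested within 1 Mb of them was called between the strains. Neighbours of other members were called in DP thymocytes: 5 of 26 higher for Itgb7, and 4 higher and 3 lower of 80 for Itgal. Lower calls numbered 1 of 2 for Itgb1, 1 of 19 for Itgae and 1 of 23 for Itgb2, with 0 of 10 called for Itgb3.

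**Figure D3:**
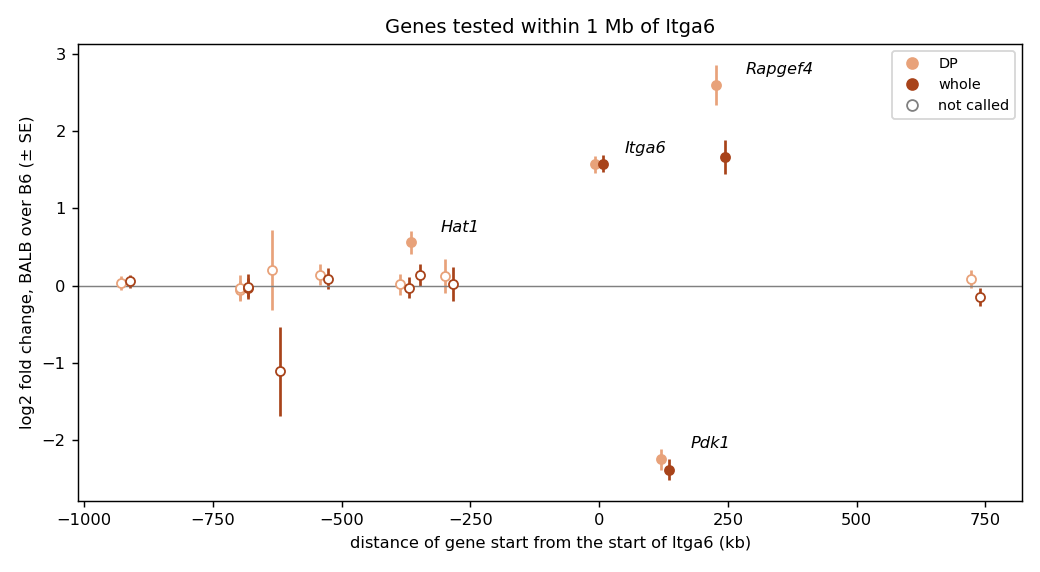
Log2 fold change of BALB over B6 (vertical axis, ± SE) for Itga6 and the 11 genes tested within 1 Mb, against the distance of each gene's start from that of Itga6 in kilobases, DP and whole thymocytes in separate colours and filled where called. Itga6 and Rapgef4 lie above 0 and Pdk1 below it, with genes farther away near 0 except Hat1 in DP and Cybrd1 in whole thymocytes at −1.11, which was not called.

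Itgb1, the beta chain that Itga6 shares with Itga4 and Itgav (chromosome 8, 128685654 to 128733200), was not called in any comparison. Its libraries read 188 and 189.7 CPM in B6 DP, 165 and 155 in BALB DP, 162 and 182 in B6 whole, and 170.5 and 144 in BALB whole thymocytes. The groups overlapped in whole thymocytes, and in DP thymocytes both BALB values were below both B6 values. The strain difference in DP thymocytes was −0.24 on the log2 scale with a 95% interval from −0.49 to 0.01, an interval that still holds a fall of 0.49. It passed in 1 of 18 alternatives, without both libraries that stood apart (−0.30, adjusted p = 0.0432 by edgeR's quasi-likelihood test), and its adjusted p otherwise ranged up to 0.475. The per-length ratio of Itga6 to Itgb1 was 0.305 and 0.294 in B6 DP libraries and 1.002 and 1.10 in BALB DP libraries, which is a description of levels and was not tested. With the longest transcript as gene length the same ratio was 0.597 and 0.575 in B6 DP and 1.96 and 2.16 in BALB DP libraries, so whether Itga6 lies near or above Itgb1 in BALB DP depends on the gene model.

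Itga4, the alpha chain that binds VCAM-1 with Itgb1 and MAdCAM-1 with Itgb7, was lower in BALB. Its libraries read 342 and 313 CPM in B6 DP, 218 and 223 in BALB DP, 354 and 329 in B6 whole, and 258 and 247 in BALB whole thymocytes. All BALB values lay below all B6 values, while DP and whole thymocytes of B6 overlapped. The change in DP thymocytes was −0.57 ± 0.10 on the log2 scale, or 1.49-fold lower (adjusted p = 0.00297 by edgeR's quasi-likelihood test), and it kept its call in 18 of 18 alternatives. In whole thymocytes the change was −0.44 ± 0.10 (adjusted p = 0.0232), with the call in 13 of 18 alternatives and adjusted p from 2.70e-04 to 0.289. That call ended without B6 DP replicate 1 (adjusted p = 0.0536), without B6 whole replicate 1 (0.289) or 2 (0.131), and without BALB whole replicate 1 (0.104) or 2 (0.173). Whole over DP thymocytes gave 0.06 ± 0.10 in B6 and 0.20 ± 0.10 in BALB, neither called. Exons of Itga4 overlap those of Cerkl, and the library kit does not keep the strand. Cerkl held 4 to 13 counts per library. These counts do not show how reads in the shared exons were assigned, and the effect on Itga4 was not tested.

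Itgb7, the beta chain shared by Itga4 and Itgae (chromosome 15, 102215995 to 102231944 on the minus strand), was higher in whole thymocytes of both strains. Its libraries held 12.9 and 16.9 CPM in B6 DP, 48.2 and 37.5 in B6 whole, 7.88 and 9.32 in BALB DP, and 42.3 and 41.4 in BALB whole thymocytes. Whole thymocyte values lay above every DP value, and the 2 strains overlapped in whole thymocytes. Itgb7 rose 2.84-fold in B6 (log2 fold change 1.51 ± 0.20, adjusted p = 0.000722) and 4.96-fold in BALB (2.31 ± 0.22, adjusted p = 3.52e-05 by edgeR's quasi-likelihood test). Between strains it was 1.79-fold lower in BALB DP thymocytes (−0.84 ± 0.24, adjusted p = 0.0417), on 45 and 24 counts in BALB against 41 and 74 in B6. This call held in 6 of 18 alternatives, with adjusted p from 0.0126 to 0.312. It ended with the replicate block (−0.84, adjusted p = 0.0580), with DESeq2 (0.0927), with limma-voom (0.0625), in the fit of only the 4 libraries (0.120), and without any 1 library other than BALB DP replicate 2, the highest adjusted p being 0.312 without B6 DP replicate 2. Without BALB DP replicate 1 the change was −0.71 (adjusted p = 0.228), and without BALB whole replicate 1 the adjusted p was 0.0667.

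Itgae, the alpha chain CD103 (chromosome 11, 73090583 to 73147446), moved with Itgb7 between populations. Its libraries read 10.4 and 9.37 CPM in B6 DP, 36.0 and 31.9 in B6 whole, 9.46 and 13.6 in BALB DP, and 52.2 and 43.7 in BALB whole thymocytes. Every whole thymocyte library lay above every DP library. The rise was 3.45-fold in B6 (1.79 ± 0.22, adjusted p = 3.97e-04) and 4.34-fold in BALB (2.12 ± 0.21, adjusted p = 4.81e-05, edgeR's quasi-likelihood test), and both calls held in 18 of 18 alternatives. In whole thymocytes Itgae was 0.50 ± 0.18 higher in BALB on the log2 scale, which did not pass (adjusted p = 0.187) although the libraries did not overlap. It passed only in the fit of the 4 libraries compared (adjusted p = 0.0416), over a range up to 0.740. In DP thymocytes the strains overlapped, at 0.17 with a 95% interval from −0.38 to 0.71.

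The start regions of Itga4, lower in BALB, and of Itgb7, higher in whole thymocytes, are shown because they are the 2 called members in the RefSeq promoter table, which matched 4 of the 9 genes. Each run is the 250 bases before RefSeq's gene start in GRCm38.p6, written 5′ to 3′ on the gene's own strand: chr2:79255176-79255425 on the plus strand for Itga4 and chr15:102231936-102232185 on the minus strand for Itgb7. RefSeq's start of Itgb7 differs from the GENCODE start given above, so the last 9 bases of its run lie inside the GENCODE gene. Capitals mark matches, on either strand, to TGTGGT (the core bound by RUNX factors) and GGGCGG (bound by SP and KLF factors). The letters CCGGAAGT, bound by ETS factors, were also searched.
Itga4: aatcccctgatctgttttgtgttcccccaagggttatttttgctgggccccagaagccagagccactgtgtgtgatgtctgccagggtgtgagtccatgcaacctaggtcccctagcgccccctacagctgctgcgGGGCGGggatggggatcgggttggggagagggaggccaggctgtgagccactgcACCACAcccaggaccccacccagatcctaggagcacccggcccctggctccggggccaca
Itgb7: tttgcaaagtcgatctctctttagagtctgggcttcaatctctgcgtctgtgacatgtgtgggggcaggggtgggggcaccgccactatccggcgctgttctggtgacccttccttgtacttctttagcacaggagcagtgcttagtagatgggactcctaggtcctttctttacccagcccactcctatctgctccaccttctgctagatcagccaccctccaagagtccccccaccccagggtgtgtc
The Itga4 run holds 1 match to the RUNX letters and 1 to the SP and KLF letters. The Itgb7 run holds none of the 3 motifs. Among 32536 promoter runs of this length, 14% held the RUNX letters, 33.0% the SP and KLF letters and 2.9% the ETS letters, so single matches of this kind are frequent. A match is a description of the reference letters, and the BALB letters of these regions were not analysed here.

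Itgal, the alpha chain of LFA-1 (chromosome 7, 127296260 to 127335138), was low in 1 of the 4 groups. Libraries read 569 and 575 CPM in B6 DP, 563 and 560.4 in B6 whole, 352 and 410.0 in BALB DP, and 493 and 548 in BALB whole thymocytes. The BALB DP values lay below all others. In DP thymocytes Itgal was 1.503-fold lower in BALB than in B6 (−0.59 ± 0.10, adjusted p = 0.00339 by edgeR's quasi-likelihood test), a call kept in 18 of 18 alternatives, and −0.11 ± 0.10 in whole thymocytes, not called. Within BALB its level in whole thymocytes was 1.37-fold that in DP thymocytes (0.45 ± 0.10, adjusted p = 0.0103). This call ended without BALB whole replicate 2 (0.37, adjusted p = 0.0955) and with only the 4 libraries compared (adjusted p = 0.0861), the lowest over 18 alternatives being 1.75e-04. In B6 the difference was −0.03 with a 95% interval from −0.25 to 0.20, and its sign changed under 2 alternatives.

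Itgb2, the beta chain of LFA-1 (chromosome 10, 77530252 to 77565708), was not called between the strains. It read 273 and 267 CPM in B6 DP, 263 and 264 in BALB DP, 331 and 314 in B6 whole, and 349 and 362 in BALB whole thymocytes. Every whole thymocyte value was above every DP value. Within BALB the level of Itgb2 in whole thymocytes was 1.35-fold that in DP (0.43 ± 0.09, adjusted p = 0.00777 by edgeR's quasi-likelihood test), a call lost without BALB whole replicate 2 (adjusted p = 0.0556) and with only the 4 libraries (0.0796), over a range down to 0.00104. In B6 the difference of 0.26 ± 0.09 did not pass (adjusted p = 0.108), but it passed with only the 4 libraries (adjusted p = 0.00188), without BALB DP replicate 1 (0.0127) or 2 (0.0201) and without both libraries that stood apart (0.00191), over a range up to 0.488. The strain difference in DP thymocytes was −0.03, with a 95% interval from −0.24 to 0.17. The per-length ratio of Itgal to Itgb2 was 0.968 and 1.002 in B6 DP against 0.622 and 0.720 in BALB DP libraries, and 0.791 and 0.830 against 0.657 and 0.703 in whole thymocytes.

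Itgb3, the beta chain of a vitronectin receptor and of the platelet fibrinogen receptor (chromosome 11, 104608000 to 104670476), showed the largest population difference of the 9. It held 13 and 9 counts in B6 DP and 4 and 0 in BALB DP, against 175 and 159 in B6 whole and 166 and 131 in BALB whole thymocytes. In scaled CPM that was 4.08 and 2.06 in B6 DP, 0.701 and 0 in BALB DP, 43.7 and 38.5 in B6 whole, and 40.1 and 32.7 in BALB whole thymocytes. No whole thymocyte library overlapped a DP library. Itgb3 rose 13.9-fold in B6 (3.80 ± 0.31, adjusted p = 2.13e-05) and by 6.16 ± 0.43 on the log2 scale in BALB (adjusted p = 3.03e-06, edgeR's quasi-likelihood test), with the call in 18 of 18 alternatives each. The BALB ratio rests on 4 counts in DP, and the counts alone give 75.4 with a 95% counting interval from 29.1 to 278. In DP thymocytes Itgb3 was lower in BALB (−2.54 ± 0.69, adjusted p = 0.0331), on 4 against 22 counts. That call ended without B6 DP replicate 1 (−2.03, adjusted p = 0.181) and without B6 whole replicate 1 (0.0530) or 2 (0.0524), and held in 14 of 17 alternatives, the lowest adjusted p being 0.00137. Without BALB DP replicate 1, which held all 4 BALB DP counts, the fitted change was −6.48, and that between BALB populations 10.1, which are no measured folds. In whole thymocytes the strains overlapped, at −0.17 with a 95% interval from −0.65 to 0.30.

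Itgav, the alpha chain that pairs with Itgb3, was not called in any comparison. Its libraries read 58.4 and 58.7 CPM in B6 DP, 49.99 and 57.8 in B6 whole, 39.9 and 45.8 in BALB DP, and 45.6 and 42.4 in BALB whole thymocytes. All BALB values were below all B6 values, while whole and DP thymocytes differed by −0.12 ± 0.14 in B6 and 0.05 ± 0.15 in BALB. The strain difference in DP thymocytes was −0.46 ± 0.14 (adjusted p = 0.0552 by edgeR's quasi-likelihood test), and it passed in 3 of 18 alternatives, namely limma-voom (adjusted p = 0.0461), the strict filter (0.0473) and the fit without BALB DP replicate 2 (0.00973), over a range up to 0.225. Itga2b, the platelet partner of Itgb3, was not called between populations: its mean was 3.54 CPM in B6 DP and 4.18 in B6 whole, 3.26 in BALB DP and 4.29 in BALB whole thymocytes (log2 fold changes 0.19 ± 0.41 and 0.48 ± 0.42).

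Markers of other cells were read beside the rise of Itgb3, Itgae and Itgb7. The 11 megakaryocyte and platelet markers summed to 10.99 to 12.3 CPM in B6 DP and 10.5 to 13.3 in B6 whole libraries, and to 8.06 to 14.4 and 9.90 to 11.5 in BALB. Ppbp, Gp1bb, Gp6 and Treml1 had no counts in any library, and Pf4 had 1 count in all. These sums overlapped where Itgb3 rose. The myeloid and dendritic cell list, with 11 of 12 markers in the files, summed to 28.9 to 33.1 CPM in B6 DP and 193 to 209.98 in B6 whole libraries, and to 26.8 to 28.9 and 227 to 242 in BALB, with Itgax and Flt3 at 0 in B6 DP. The 8 markers of innate-like and NK cells went from at most 1.14 to between 36.0 and 46.2 CPM in B6 and from at most 3.15 to between 115 and 128 in BALB, with Il2rb, Klrd1 and Ncr1 at 0 in DP libraries of both strains. Regulatory T cell markers (4 of 5 with counts, Ctla4 at 0 in every group) went from 134 to 136 up to 234 to 242 CPM in B6, and from 140.3 to 162 up to 255 to 301 in BALB. Mature thymocyte markers (8, S1pr1 at 0 in B6 DP) went from 877 to 912 up to 1024 to 1064 CPM in B6, and from 713 to 803 up to 1059 to 1184 in BALB. These sums weigh the abundant markers most. Of the 8, 6 were called higher in B6 and 7 in BALB, against 6.89% and 10.6% of all genes. Their median log2 fold changes were 3.15 and 4.53. The 8 markers of CD4- and CD8-negative (DN) thymocytes went from 408 to 409 up to 524 to 573 CPM in B6, and from 321 to 385 up to 455 to 469 in BALB. Of these 5 were tested, 3 were called higher in each strain, and the medians were 1.39 in B6 and 1.0 in BALB. The 6 B cell markers went from 10.4 to 10.97 up to 21.8 to 25.996 CPM in B6, and from 3.11 to 4.73 up to 15.98 to 21.01 in BALB, with Pax5 at 0 in BALB DP. Of the 7 gamma-delta T cell markers 2 were in the files, and their sum went from 0.314 to 1.14 up to 9.25 to 9.92 CPM in B6 and from 0 to 0.701 up to 11.98 to 19.1 in BALB. The DP markers went the other way, from 18363 to 19132 down to 11100 to 11624 CPM in B6 and from 11697 to 11924 down to 8205.5 to 8709.7 in BALB. The part of any of these cells in the higher integrin values of whole thymocytes was not tested.

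No integrin gene passed the test of whether its strain difference changed between populations, where 0.105% of all genes were called higher and 0.0175% lower in that interaction. At an unadjusted p under 0.05 there were 3 (Itgal, Itgb3 and Itgb7), all upward, where 4.83% of all genes were, and DESeq2 and limma-voom called 0. All 9 fitted interactions were above 0, as were 51.0% of those of all genes, but the signs of Itga6 and Itgb1 changed when single libraries were left out and those of Itgae and Itgav without both libraries that stood apart, and the 9 values share the same DP libraries. For Itgal the interaction was 0.48 ± 0.14 (adjusted p = 0.263 by edgeR's quasi-likelihood test), and it passed without BALB DP replicate 2 (0.59, adjusted p = 0.00308) and without both libraries that stood apart (0.43, adjusted p = 0.0203), over a range up to 0.727. For Itgb3 it was 2.36 ± 0.73 (adjusted p = 0.276), passing only with no filter on low counts (adjusted p = 0.0267), over a range up to 0.678. For Itgb7 it was 0.81 ± 0.30 (adjusted p = 0.365).

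The shares of the chains in the summed level are given as a description, with no test. Of the summed per-length level of the 5 alpha chains, Itga6 held 10.4% to 10.6% in B6 DP and 32.8% to 35.1% in BALB DP libraries, and 8.11% to 8.83% against 22.1% to 24.3% in whole thymocytes. Itgal held 65.2% to 66.8% in B6 DP and 46.4% to 49.0% in BALB DP. Itgae went from 1.56% to 1.70% in DP up to 5.24% to 5.84% in whole thymocytes of B6, and from 1.79% to 2.33% up to 6.31% to 8.12% in BALB. These shares sum to a fixed total, so a gain of 1 chain lowers the others. Of the 4 beta chains, Itgb2 held 61.4% to 68.0% in all 8 libraries, with 62.3% to 63.5% in B6 DP and 66.5% to 67.8% in BALB DP. Itgb7 held 3.30% to 4.35% in B6 DP against 2.19% to 2.63% in BALB DP. Itgb3 and Itgb7 together moved from small shares in DP to larger ones in whole thymocytes: Itgb7 from 3.30% to 4.35% up to 8.08% to 10.1% in B6, and Itgb3 from 0.248% to 0.490% up to 3.89% to 4.29%. With the longest transcript as gene length, the mean share of Itga6 was 15.8% in B6 DP and 45.2% in BALB DP.

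**Figure D4:**
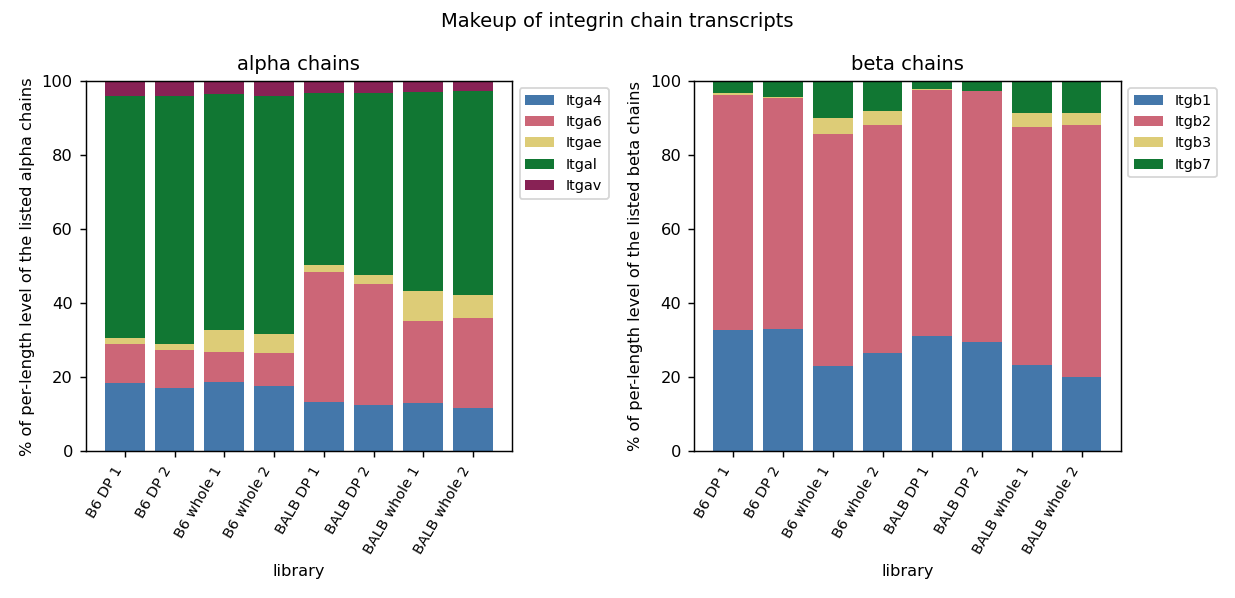
Share of each gene in the summed per-length level of the 5 listed alpha chains (left) and the 4 listed beta chains (right), in percent, 1 bar per library. Itga6 takes 32.8% to 35.1% of the alpha chains in BALB DP against 10.4% to 10.6% in B6 DP, and Itgb3 and Itgb7 are wider in whole thymocytes than in DP thymocytes.

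Partner chains also changed in balance between populations. The per-length ratio of Itga4 to Itgb7 was 5.27 and 3.67 in B6 DP and 5.47 and 4.74 in BALB DP libraries, against 1.46 and 1.74 in B6 whole and 1.21 and 1.18 in BALB whole libraries. Itgav to Itgb3 went further, from 7.86 and 15.7 in B6 DP to 0.628 and 0.826 in B6 whole libraries, and from 31.3 in the BALB DP library with Itgb3 counts to 0.625 and 0.713 in BALB whole libraries. Itgae to Itgb7 stayed between 0.335 and 0.515 in the 4 B6 libraries and between 0.637 and 0.882 in the 4 BALB libraries, a range that did not separate DP from whole thymocytes. These ratios are values per library, with no test.

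Across the 8 libraries the 9 genes formed sets whose values rose and fell together, given here as Pearson correlations of log2 CPM, with no p since the libraries share groups and depth. Itgb3 with Itgb7 reached 0.97, Itgae with Itgb2 0.97 and Itgae with Itgb7 0.91. Itga4 with Itgav reached 0.84 and Itga4 with Itgal 0.84. Itga4 and Itga6 ran opposite, at −0.98. Among 9643 other genes of at least 5 CPM, the 3 most like Itga6 were Sord (0.998), Neu3 (0.993) and Clec16a (0.991), a sorbitol dehydrogenase, a sialidase and an autophagy-related protein. The 3 most like Itga4 were Gbp6 (0.990), Slc12a7 (0.982) and Apobec3 (0.980). Nearest to Itgb7 were Zfp324 (0.994), Ccr7 (0.992), the receptor that draws thymocytes to the medulla, and Ctsw (0.991). Nearest to Itgb3 were Gm4759 (0.995), Bach2 (0.991) and Wdfy4 (0.991), and nearest to Itgae were C3 (0.992), Pik3ap1 (0.990) and Lcp1 (0.989). Nearest to Itgb1 were Rpusd1 (0.968), Ift80 (0.960) and Crot (0.939), to Itgb2 Arid5b (0.996), Arhgap20 (0.993) and Folr4 (0.991), to Itgal Unkl (0.989), Herc3 (0.981) and Slc35e2 (0.977), and to Itgav 5830415F09Rik (0.970), Cmip (0.970) and Laptm4b (0.969).

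Of the other 17 integrin chains 10 were tested. Itga5, a fibronectin receptor chain, stood at 26.7 CPM in B6 DP and 16.5 in BALB DP, and Itgam, a myeloid chain, at 13.4 and 12.9. In whole over DP thymocytes 2 of 10 rose in B6 and 4 of 10 in BALB, against 6.89% and 10.6% of all genes. Itgax, the CD11c chain of dendritic cells, had no counts in B6 DP and 52 in B6 whole libraries, with a 95% counting interval from 12.6 upward. In BALB its counts gave a ratio of 43.7 (95% interval from counting 7.43 to 1764). Itga1, a collagen receptor chain, had no counts in DP thymocytes of either strain, against 17 in B6 whole and 29 in BALB whole thymocytes. Its 95% counting intervals for whole over DP ran from 3.83 upward in B6 and from 7.48 upward in BALB. The B6 call of Itga1 (adjusted p = 0.0271 by edgeR's quasi-likelihood test) ended without any 1 of the 4 B6 libraries, with adjusted p up to 0.148, and the BALB call ended without both libraries that stood apart (0.0999). Itgb4, the beta chain of a laminin receptor, rose by 1.63 ± 0.35 and Itgb5, a partner of Itgav, by 1.80 ± 0.51 in BALB. Without BALB whole replicate 2 both calls ended (adjusted p = 0.0654 and 0.155), as they did without BALB DP replicate 1 (0.0815 and 0.122), and that of Itgb5 also without BALB whole replicate 1 (0.0771) and with DESeq2 (0.140). Itgam gave −0.13 ± 0.24 in B6 and 0.05 ± 0.24 in BALB. Between strains 1 was called in DP and none in whole thymocytes, where 2 were lower at an unadjusted p under 0.05 and the tool was edgeR. Of all genes, 13.0% were called in DP and 4.59% in whole thymocytes, where 7.29% were lower at an unadjusted p under 0.05. The call was Itga3 lower in BALB DP (−1.33 ± 0.39, adjusted p = 0.0433), a call held in 5 of 17 alternatives over a range up to 0.234 and lost without BALB DP replicate 1 (0.188) or BALB whole replicate 1 (0.0593). The median log2 fold change of these 10 was −0.30 in DP and −0.12 in whole thymocytes for BALB over B6, and 0.57 in B6 and 0.51 in BALB for whole over DP.

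Of 46 listed genes that activate integrins or tie them to the cytoskeleton, 40 were tested. BALB over B6 called 3 higher and 5 lower in DP thymocytes and 1 higher in whole thymocytes, and whole over DP called 3 higher and 2 lower in B6 and 5 and 2 in BALB. In either direction that was 20% of the list against 13.0% of all genes between strains in DP, 2.5% against 4.59% in whole thymocytes, 12.5% against 10.2% between populations in B6 and 17.5% against 17.2% in BALB, shares near the background in the population comparisons. Their medians lay between −0.09 and 0.05 on the log2 scale. The talin gene Tln1, which binds beta tails, averaged 1096 CPM in B6 DP and 1053 in BALB DP, and the haematopoietic kindlin gene Fermt3 averaged 277 and 262. Evl, an actin regulator of the Ena and VASP family, rose by 0.99 ± 0.16 in BALB DP and 0.56 ± 0.14 in BALB whole thymocytes over B6, and between populations by 1.2 ± 0.16 in B6 and 0.76 ± 0.15 in BALB. Its whole thymocyte strain call held in 10 of 18 alternatives, with adjusted p up to 0.430 (edgeR's quasi-likelihood test). Vasp, of the same family, was −0.56 ± 0.12 in BALB over B6 DP and 0.88 ± 0.11 in BALB whole over DP thymocytes. Dock8, an exchange factor for Cdc42, was −0.47 ± 0.10 and Stk3, a Hippo kinase, 0.82 ± 0.18 in BALB over B6 DP thymocytes. The strain calls of Vasp and Dock8 ended without either B6 DP library (adjusted p up to 0.0689 and 0.0805), and that of Stk3 without B6 DP replicate 2 (0.134) or BALB DP replicate 1 (0.0647). The other calls of the strains in DP thymocytes were Skap2, an adaptor, at 1.07 ± 0.28, and Sipa1l1, Pxn and Dock2, at −0.53 ± 0.12, −0.43 ± 0.13 and −0.43 ± 0.10. The Skap2 call held in 11 of 17 alternatives and ended without BALB DP replicate 1 (0.54, adjusted p = 0.401). Pxn kept its call in 7 of 18 alternatives (adjusted p up to 0.227), and Sipa1l1 and Dock2 in 15 of 18 each, ending without either B6 DP library (up to 0.117 and 0.118).

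Rapgef6, an exchange factor for Rap1, rose by 0.52 ± 0.10 in B6 and 0.53 ± 0.10 in BALB whole over DP thymocytes, and Cytip, which binds the LFA-1 regulator cytohesin, by 0.82 ± 0.16 and 0.83 ± 0.16. Kif5b, a kinesin motor, was called lower at −0.41 ± 0.10 in B6 and −0.54 ± 0.10 in BALB. The other population calls were Apbb1ip, the talin recruiter RIAM, at −0.34 ± 0.10 in B6, and Ptk2b at 0.40 ± 0.11 and Stk3 at −0.91 ± 0.18 in BALB. The B6 calls of Rapgef6 and Kif5b ended without any 1 of the 4 B6 libraries (adjusted p up to 0.0727 and 0.199), and that of Cytip without B6 DP replicate 2 (0.0836) or B6 whole replicate 1 (0.0562) or 2 (0.0669). That of Apbb1ip held in 7 of 18 alternatives (adjusted p up to 0.291) and ended without any 1 of the 4 B6 libraries. In BALB the calls of Ptk2b held in 12 of 18 alternatives, of Stk3 in 18 and of Evl in 17, Ptk2b ending without BALB DP replicate 1 (0.0574) or either BALB whole library (up to 0.115) and Evl without BALB whole replicate 2 (0.0532).

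Of 29 listed integrin ligand genes, most of which are products of stroma and not of thymocytes, 27 had counts and 17 were tested. In whole over DP thymocytes 8 rose, 1 fell (Lamc1, a laminin chain, −0.59 ± 0.16) and 8 were not called in B6, while 10 rose and 7 were not called in BALB. Of all genes, 6.89% rose and 3.27% fell in B6, and 10.6% rose and 6.59% fell in BALB. The Lamc1 call held in 9 of 18 alternatives and ended without any 1 of the 4 B6 libraries (adjusted p up to 0.276). The median of the 17 ligand genes was 3.21 in B6 and 4.04 in BALB on the log2 scale, or 2.31 and 3.24 with genes lacking counts in DP set at their lower bound. Vcam1, the ligand of Itga4 with Itgb1, rose from a mean of 0.728 to 15.5 CPM in B6 (4.24 ± 0.43) and in BALB its counts gave a ratio of 82.7 (95% interval from counting 22.5 to 689). Fn1, encoding fibronectin, held 94 counts in B6 whole against 1 in B6 DP thymocytes, a ratio of 87.3 (95% interval from counting 15.3 to 3483), and rose by 4.04 ± 0.43 in BALB. Cdh1, encoding the E-cadherin bound by Itgae with Itgb7, stood at 42 against 2 counts in B6, a ratio of 19.5 (5.07 to 166), and this call ended without either B6 DP library or B6 whole replicate 2 (adjusted p from 0.0614 to 0.0973).

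The matrix gene Tnc had no counts in DP thymocytes, against 48 in B6 whole and 165 in BALB whole thymocytes. Its 95% counting intervals for whole over DP ran from 11.6 upward in B6 and from 44.9 upward in BALB. Tnc was 1.77 ± 0.32 higher in BALB than in B6 whole thymocytes on the log2 scale (adjusted p = 0.0104 by edgeR's quasi-likelihood test). The strain call of Tnc ended without either B6 whole library (0.15 and 0.0747) or BALB whole replicate 1 (0.121). The laminin gene Lama3 held 44 counts in BALB whole against 0 in BALB DP thymocytes, with a 95% counting interval from 11.6 upward. In DP thymocytes the laminin gene Lamb3 held 2 counts in BALB against 31 in B6, a ratio of 0.0589 (95% interval from counting 0.00683 to 0.231). The collagen gene Col1a2 held 11 counts in BALB DP against 0 in B6 DP, with a 95% counting interval from 2.29 upward. The Col1a2 call ended without either B6 DP library or either BALB whole library. Thymic epithelial markers moved beside Tnc and Lama3, with 9 markers summing to 5.65 to 5.71 CPM in B6 DP, 26.997 to 37.5 in B6 whole, 2.80 to 4.66 in BALB DP and 78.7 to 84.6 in BALB whole libraries, and Krt14 and Foxn1 at 0 in DP libraries of both strains. Lamb3 did not follow them in B6, with 31 counts in DP and 30 in whole thymocytes. Col1a2 was higher in BALB DP, where the marker sum was lower. The part of epithelial cells in the ligand values was not tested. The ICAM genes, ligands of LFA-1, included Icam2, which averaged 67.9 CPM in B6 DP, 70.5 in BALB DP, 68.4 in B6 whole and 68.1 in BALB whole thymocytes.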

How the data were processed

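The authors deposited raw counts per gene symbol for each of 8 RNA-seq libraries. The submitters' processing notes name HISAT2 2.2.0, HTSeq, DESeq2 1.42.1 and the build mm10. The HTSeq version, the annotation and any filter on reads were not given in the sources used here. Per the labels' protocols, the library kit was TruSeq RNA Sample Prep Kit v2.

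HTSeq's summary lines were left out of library sizes and tests. Reads in no gene made up 43.3% to 48.9% of a file. The main model was fitted in edgeR 4.0.16 (R 4.3.3): filterByExpr over the 4 groups, trimmed-mean scaling, 1 coefficient per group over all 8 libraries, and the quasi-likelihood test with Benjamini-Hochberg adjustment over 11409 genes (common biological coefficient of variation 0.114). Values after ± beside a log2 fold change are standard errors. The code was tested on simulated data. Exon lengths and positions came from GENCODE's mm10 annotation and promoters from RefSeq (GRCm38.p6). Counting intervals and lower bounds (floor of 3 counts over a group) cover counting error only. Replicates of each group differed by more than sampling noise, with a chi-square per degree of freedom of 18.2 in BALB DP against 4.05, 1.62 and 4.35 in B6 DP, B6 whole and BALB whole thymocytes. These values used counts scaled by library totals and included Rn45s, which held 3.14% and 6.94% of counts in the BALB DP libraries. They are thus not a spread of typical genes alone.

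The members, lists and tests were chosen with earlier results of these data known. Genes named besides members were up to 4 called genes of the smallest p per list and comparison, the 3 most like each member among genes of at least 5 CPM, and markers. Chosen after their values were seen were the neighbours of Itga6, the abundant genes Tln1, Fermt3, Itga5, Itgam, Itga2b and Icam2, and Skap2, Sipa1l1, Pxn, Dock2, Apbb1ip, Ptk2b, Lamc1 and the BALB population calls of Evl and Stk3. Alternatives were other scalings and filters, DESeq2 1.42.0, limma-voom (limma 3.58.1), robust estimation, a replicate block, only the libraries compared, and leaving out libraries with the same genes tested.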

Additional observations from a re-analysis of the deposited data

How the results depend on the processing

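Counts of called integrin genes and, in the same order, of all genes called, moved as follows. For BALB over B6 in DP thymocytes the 5 and 1482 became 3 and 562 with only the 4 libraries compared, and leaving out libraries gave 3 to 6 and 507 to 3480. For whole thymocytes the 2 and 524 became 3 and 1050 with only the 4 libraries, all genes became 839 with no filter and 325 with the strict filter, and leaving out libraries gave 1 to 2 and 212 to 1016. For whole over DP in B6 the 3 and 1159 became 5 and 2568 with only the 4 libraries, all genes became 512 with the strict filter and 748 with DESeq2, and leaving out libraries gave 3 to 5 and 385 to 2763. For whole over DP in BALB the 5 and 1961 became 3 and 1101 with only the 4 libraries, all genes became 910 with the strict filter, and leaving out libraries gave 3 to 5 and 978 to 3723. For the interaction the 0 and 14 became 1 and 364 with no filter, all genes became 24 with DESeq2, 8 with limma-voom and 23 with robust estimation, and leaving out libraries gave 0 to 1 and 0 to 1277. The highest counts of all genes for DP thymocytes, BALB populations and the interaction came without BALB DP replicate 2. The cause was not tested.

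Over the 9 integrin genes, 24 of the alternative fits of a called gene lost the call, 245 kept it, and none of a called gene changed sign. Signs changed 18 times in uncalled results, and 15 alternative fits of an uncalled result gained a call. With upper-quartile scaling and the strict filter, whole over DP became 0.002 and 0.029 for Itgal in B6 and 0.038 and 0.037 for Itgb1 in BALB (log2). Leaving out libraries gave ranges across 0 for Itgae (−0.051 to 0.460) in DP and Itgb7 (−0.205 to 0.159) in whole thymocytes between strains, for Itgav (−0.109 to 0.141) and Itgb1 (−0.157 to 0.092) between BALB populations, and in the interaction for Itga6 (−0.117 to 0.124), for Itgae (−0.117 to 0.549), for Itgav (−0.002 to 0.278) and for Itgb1 (−0.024 to 0.225).

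Replicate numbers are not stated to pair the libraries. Correlations of same-numbered deviations from group means lay between −0.041 and 0.066. With 2 libraries a group these values cannot exclude that some libraries share an animal. With the replicate block, called integrin genes numbered 4, 2, 3, 5 and 0 and all genes called 1321, 465, 1033, 1777 and 11, in the order above. With 2 libraries a group and 0 to 13 counts of Itgb3 per DP library, depth limits the precision of its DP values.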
